A study of Mus musculus with 48 samples.

Results

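Genes with 2 peaks a day were sought in 4 parts of the mouse dopamine system, over all 48 of the 48 arrays of the study. For each gene a cosine and a sine with a 12-h period were fitted beside a 24-h pair, with tissue as a term, and the 12-h pair was tested in limma. The animals were male C57BL/6 mice that shared 1 light cycle, 12 h of light and 12 h of darkness, with no other treatment or genotype named in the labels. Their age is not given there. Pools were made of habenula (HAB), striatum (STR), prefrontal cortex (PFC) and of ventral tegmental area joined with substantia nigra (SN/VTA), cut on both sides from coronal brain slices. Times are Zeitgeber times (ZT), counted in hours from the start of the light phase: ZT3, ZT7 and ZT11 fell in light, and ZT15, ZT19 and ZT23 in darkness. Collection ran through 2 successive cycles of 24 h, each starting at ZT11, and the replicate number names the cycle. That gave 2 arrays for each tissue and time, 12 for each tissue and 8 for each time over the tissues. Each array carried RNA pooled from 3 mice. P-values therefore measure the spread between pools. In the shared fit this spread also holds differences in rhythm between tissues and departures from the fitted curves. The labels do not say whether the 4 tissues of 1 time and cycle came from the same mice.

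The tissues carried their defining markers. Slc6a3, the dopamine transporter of midbrain neurons, was at 11.32 (log2 level) or more on every SN/VTA array and at 6.48 or less on all others. Chrna3, a nicotinic receptor subunit of the habenula, was at 10.22 or more in HAB and at 8.34 or less elsewhere. Of the 48 arrays, 48 correlated best with an array of their own tissue, and the correlation of the 2 replicates of a group was 0.982 at the lowest and 0.995 at the highest. The HAB arrays differed in choroid plexus transcripts, mainly by replicate. The mean log2 level of the choroid plexus list ran from 8.83 to 9.26 on the HAB arrays of replicate 1. On those of replicate 2 it ran from 7.0 to 7.37, except for 9.17 at ZT15. Ttr, its defining transcript, ran from 10.14 to 13.14 over the 12 HAB arrays.

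Most clock-driven transcripts peak once in 24 h, when the activators CLOCK and BMAL1 and the repressors of the period and cryptochrome families take turns on their promoters. Transcripts with 2 peaks a day are best known from mouse liver, where genes of protein folding and secretion in the endoplasmic reticulum (ER) follow a 12-h period. In brain, immediate early genes such as Fos respond within minutes to neuronal activity, so their level can move at any hour at which activity does. In such a fit, a 12-h rhythm of its own and a 24-h rhythm that departs from a pure sine cannot be told apart. Samples every 4 h give only 3 points in 12 h, and at these times a 6-h period gives exactly the same fit (R2 of 1.00). The 24-h amplitude is therefore set beside the 12-h amplitude of each of the genes that passed.

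Of 17274 genes tested, 17 passed the 12-h test shared by the 4 tissues at an adjusted p of 0.05 (0.0984%), and 1195 had an unadjusted p under 0.05 (6.92%). In the same model 1018 genes passed the test of the 24-h pair (5.89%). The 12-h amplitudes, from the mean to the peak on the log2 scale, were small, from 0.088 to 0.22 for the 17 genes, or 1.13-fold to 1.36-fold from trough to peak. Their median was 0.13, beside 0.034 for all genes tested. The call depends on taking the 4 tissues of 1 time and cycle as separate pools. For comparison they were averaged to 12 values with 7 residual degrees of freedom. In limma 0 genes then passed and 938 of 17274 had an unadjusted p under 0.05. All 17 had an unadjusted p under 0.05 there too, and the lowest adjusted p was 0.315. The averages are of the same arrays that chose the 17 genes, so their low p adds no support. A random block for the same time and cycle, with an estimated correlation of 0.0049, left 17.

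The sum of both terms had 2 maxima in 24 h for each of the 17 genes. This count says little by itself, since 77.6% of all genes tested had 2 fitted maxima. In the means of the 6 times, 15 of the 17 had 2 maxima, beside 69.2% of all genes; the exceptions were Hif3a and Adipor2. For 9 genes the 12-h amplitude was above the 24-h amplitude: Fos, AF357426, 2610524H06Rik, P2ry13, Ccdc117, Zfc3h1, Olig2, Kcnmb1 and Nudt6. A 24-h rhythm also passed for 13 of the 17, all but 2610524H06Rik, P2ry13, Olig2 and Nudt6. The 12-h peaks fell into 2 ranges. For 11 genes they lay between ZT10.8 and ZT12.6 and again 12 h later, near the changes of light, and for 6 genes between ZT4.1 and ZT6.7 and again 12 h later.

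**Figure D1:**
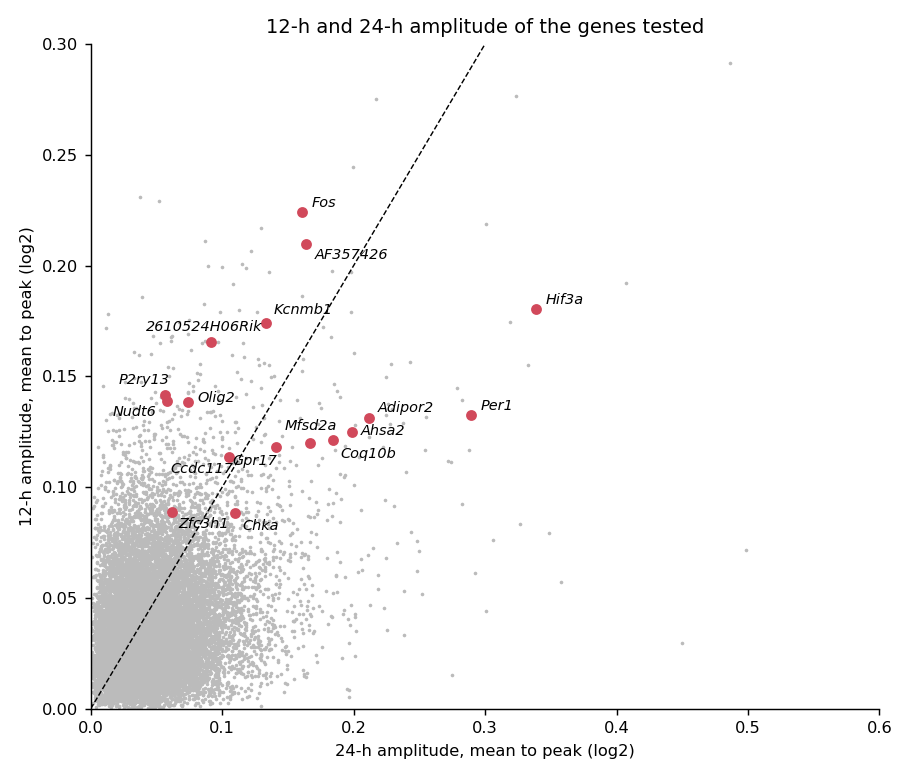
Amplitude of the 12-h term against that of the 24-h term, both from mean to peak on the log2 scale, for the genes tested (grey points; 3 genes lie outside the axes). Red points are the 17 genes that passed the shared 12-h test; 9 of them lie above the dashed line of equal amplitudes, with Fos the highest at 0.22, and Hif3a and Per1 lie far to the right of it.

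Fos, a subunit of the transcription factor AP-1 and the standard marker of recent neuronal activity, had the lowest p. Set against the mean of its tissue, the 8 arrays of ZT11 ran from 0.064 to 0.34 (median 0.15) and those of ZT23 from 0.095 to 0.65 (median 0.25). At ZT3 they ran from -0.48 to -0.072 (median -0.34), at ZT7 from -0.39 to 0.031 (median -0.23), at ZT15 from -0.17 to 0.25 (median 0.028) and at ZT19 from -0.25 to 0.25 (median 0.020). All 16 arrays of ZT11 and ZT23 were above their tissue mean, while those of ZT15 and ZT19 lay on both sides of it and overlapped them. The 12-h amplitude was 0.22 ± 0.03 (SE), with peaks at ZT10.8 and ZT22.8 (limma, adjusted p = 3.69e-04), and the 24-h amplitude was 0.16. The level was thus high at both ends of the night and lowest in the first hours of light. In PFC, where Fos was most abundant, the arrays of replicate 1 and 2 read 6.71 and 6.78 at ZT3, 6.80 and 6.86 at ZT7, 7.25 and 7.53 at ZT11, 7.39 and 7.25 at ZT15, 7.28 and 7.17 at ZT19, and 7.41 and 7.84 at ZT23 (log2 levels). Both arrays of ZT15 and 1 of ZT19 thus read as high as or higher than the lower array of ZT11, and those of ZT3 and ZT7 were below all others.

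**Figure D2:**
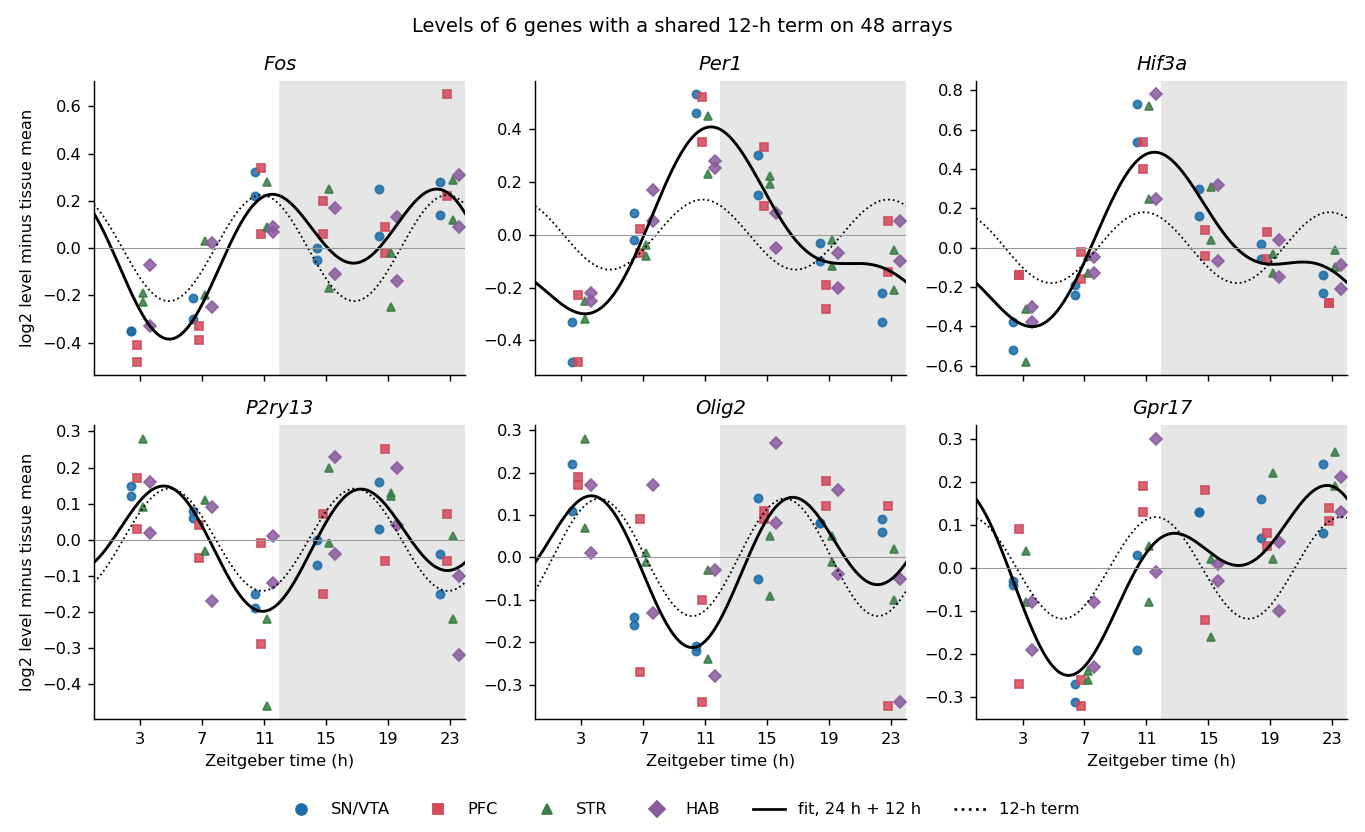
Log2 level minus the tissue mean on each of the 48 arrays against Zeitgeber time for 6 genes that passed the shared 12-h test; symbols are the tissues, the grey area is darkness, the solid line is the fit of both periods and the dotted line its 12-h term. Fos is above its tissue mean on all arrays of ZT11 and ZT23, P2ry13 and Olig2 are above it on all arrays of ZT3, and the second peak of Per1 and Hif3a is only a shoulder at night.

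AF357426, a small nucleolar RNA gene, moved with almost the same timing. It falls outside the rule for named genes, which passes over small RNAs, and is given because it is 1 of the 17. All 8 arrays of ZT11 (0.019 to 0.59) and all 8 of ZT23 (0.014 to 0.43) were above the tissue mean, and all 8 of ZT3 (-0.44 to -0.089) were below it, with no overlap. Its 12-h amplitude was 0.21 ± 0.03, with peaks at ZT11.0 and ZT23.0 (limma, adjusted p = 3.69e-04) and a 24-h amplitude of 0.16.

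Per1, Hif3a and Adipor2 also had 12-h peaks near ZT11 and ZT23, but with the larger share of their rhythm in the 24-h term. Per1 encodes a repressor of the clock and is itself induced by CREB and by glucocorticoids. Its arrays ran from 0.23 to 0.53 at ZT11, from -0.33 to 0.051 at ZT23 and from -0.48 to -0.22 at ZT3, so that ZT11 overlapped neither of them. The 12-h amplitude was 0.13 ± 0.02 (limma, adjusted p = 0.0153) against 0.29 for the 24-h term, which peaked at ZT12.4. The lower of its 2 fitted peaks, at ZT20.8, stood only 0.0007 above the shallower trough. Hif3a, a member of the hypoxia-inducible factor family, had a 12-h amplitude of 0.18 and a 24-h amplitude of 0.34 with its peak at ZT12.9. Its 8 arrays lay between 0.25 and 0.78 at ZT11 and between -0.28 and -0.011 at ZT23. Adipor2, a receptor of adiponectin, had amplitudes of 0.13 and 0.21. At ZT3 and ZT15 together the highest array was at 0.33 for Per1 and at 0.32 for Hif3a, within their ranges of ZT11. For Per1 that array was of ZT15, since all those of ZT3 were below the tissue mean. In these 3 genes the 12-h term described the shape of the main daily rise more than a second peak of comparable height.

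The other genes with 12-h peaks around the changes of light differed in how even their 2 daily peaks were. Mfsd2a, which carries lysophospholipids with omega-3 fatty acids across the blood-brain barrier, peaked at ZT12.0 in its 12-h term (amplitude 0.12 ± 0.02, limma, adjusted p = 0.0131; 24-h amplitude 0.17). Ahsa2, related to the activator of the HSP90 ATPase, peaked at ZT12.6 (0.13, beside 0.20 for 24 h) and Coq10b, which binds coenzyme Q in mitochondria, at ZT11.9 (0.12, beside 0.18). Chka, choline kinase alpha of phosphatidylcholine synthesis, had the smallest amplitude of the 17, 0.088, with a peak at ZT11.8 and 0.11 for 24 h. Ccdc117 had 0.11 with a peak at ZT11.7 and 0.10 for 24 h. In the sum of both terms, the peaks of Ahsa2 stood at 0.17 (ZT14.1) and 0.16 (ZT23.0) above the tissue mean, nearly level, and those of Coq10b at 0.31 (ZT11.9) and -0.063 (ZT23.9), far apart. Mfsd2a, Ccdc117 and Chka lay between, with the later peak at 0.077, 0.064 and 0.061. For Ccdc117 15 of the 16 arrays of ZT11 and ZT23 were above the tissue mean, for Chka 14 and for Mfsd2a 13. The arrays of ZT19 overlapped those of ZT11 in each of these 3 genes.

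Genes of glial cells were found in both ranges of 12-h peaks. P2ry13, a receptor for ADP on microglia, was highest at ZT3 and ZT19. Its 8 arrays of ZT3 ran from 0.017 to 0.28 (median 0.14) and those of ZT19 from -0.060 to 0.25 (median 0.12), while ZT11 ran from -0.46 to 0.014 (median -0.17) and ZT23 from -0.32 to 0.067. ZT3 did not overlap ZT11 and overlapped ZT23. The 12-h amplitude was 0.14 ± 0.02 with peaks at ZT4.9 and ZT16.9 (limma, adjusted p = 0.0131), and the 24-h amplitude was 0.057. Olig2, the transcription factor that sets the oligodendrocyte lineage, had peaks at ZT4.1 and ZT16.1 (0.14 ± 0.03, adjusted p = 0.0251 in limma; 24-h amplitude 0.074). All 8 arrays of ZT3 (0.013 to 0.28) were above the tissue mean and all 8 of ZT11 (-0.34 to -0.032) below it. Gpr17, a receptor of precursors on the way to myelinating oligodendrocytes, had a different timing, with peaks at ZT11.6 and ZT23.6 (0.12 ± 0.02, limma, adjusted p = 0.0402, 24-h amplitude 0.14). Its 8 arrays of ZT23 ran from 0.079 to 0.27 and its 8 of ZT7 from -0.32 to -0.081, with no overlap. In bulk tissue, fewer cells of a type and less RNA per cell cannot be told apart.

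Markers of the same cells were looked up beside these genes. Of 9 microglia markers tested, 2 had an unadjusted p under 0.05 (22.2%, beside 6.92% of all genes): Cx3cr1, the fractalkine receptor (0.088, peak ZT5.0, limma, adjusted p = 0.199), and C1qc of complement (0.088, peak ZT5.3). P2ry12, the relative of P2ry13 that marks resting microglia, had an amplitude of 0.041 (unadjusted p = 0.169). The mean log2 level of the microglia list, which does not hold P2ry13, was 7.52 ± 0.10 (SD, 4 arrays) in HAB at ZT11 and ZT23, 7.59 ± 0.05 at ZT3 and ZT15 and 7.63 ± 0.04 at ZT7 and ZT19. At the same pairs of times it was 7.82, 7.89 and 7.86 in STR, 8.01, 8.01 and 7.99 in SN/VTA, and 7.88, 7.83 and 7.87 in PFC. In HAB and STR it was thus lowest at ZT11 and ZT23, as P2ry13 was, and its part in the P2ry13 value was not tested. A list of 9 genes of oligodendrocyte precursors was chosen after the values were seen and holds Olig2 and Gpr17 themselves. Of these 9, 3 had an unadjusted p under 0.05 (33.3%): Olig2, Gpr17 and Neu4 (0.088, peak ZT11.8). Apart from the 2 genes that had already passed, only Neu4 was under 0.05, so the share adds no support. Pdgfra, which marks these precursors, had 0.039 with an unadjusted p of 0.27 and Olig1 0.038 with 0.257. Of 11 markers of mature oligodendrocytes, only Opalin was under 0.05 (9.09%, amplitude 0.17, peak ZT6.8), and of 10 astrocyte markers none was.

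The remaining genes of the earlier range were Kcnmb1, Nudt6, Zfc3h1 and 2610524H06Rik. Kcnmb1, the smooth muscle subunit of the calcium-activated BK potassium channel, peaked at ZT6.7 (0.17 ± 0.03, limma, adjusted p = 0.0310; 24-h amplitude 0.13). None of the 8 arrays of ZT11 or of the 8 of ZT15 was above the tissue mean, and 7 of the 8 of ZT19 were. Nudt6, a Nudix hydrolase gene, had 0.14 with a peak at ZT4.9, beside 0.058 for 24 h. It overlaps Fgf2 on the opposite strand, and signal of the pair may not be separate here. Zfc3h1, a zinc finger protein of nuclear RNA turnover, had 0.089 with a peak at ZT4.4, beside 0.061 for 24 h, and 2610524H06Rik, named because it is 1 of the 17 though the rule passes over such symbols, had 0.17 with a peak at ZT5.3, beside 0.091. At the threshold, the last gene inside was Gpr17, and the first outside were Podxl (adjusted p = 0.0660 in limma, amplitude 0.13), Hspa5 (0.0925, amplitude 0.12) and H1f2 (0.108, amplitude 0.15).

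Which tissues showed these rhythms was read from a model with 12-h and 24-h terms of each tissue. Since the shared test is the sum over the tissues, what follows describes how evenly the 17 genes were spread over them and adds no support. The 12-h peak of each gene in each of the 4 tissues lay within 2 h of its shared peak, for 17 of 17 genes. An unadjusted p under 0.05 was reached in 3 tissues by 9 genes, in 2 tissues by 7, in 1 tissue by 1 (Chka, in HAB) and in all 4 by none. By tissue, 9 of the 17 reached it in SN/VTA, 9 in PFC, 11 in STR and 13 in HAB. Of all genes, 1.38%, 5.53%, 9.71% and 8.23% did in the same order. The spread behind these p-values is pooled over the 4 tissues. With such unlike shares of all genes, the counts do not rank the tissues. The median amplitude of the 17 was 0.12 in SN/VTA, 0.11 in PFC, 0.14 in STR and 0.16 in HAB, beside 0.047, 0.063, 0.071 and 0.067 for all genes.

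Individual genes leaned toward single tissues without a difference that passed. Fos had its largest amplitude in PFC (0.32 ± 0.06), then SN/VTA (0.25), STR (0.19) and HAB (0.14, unadjusted p = 0.0788 in limma). Its 6 time means had maxima at ZT11 and ZT23 in each of the 4 tissues. AF357426 and Kcnmb1 were the only genes of the 17 to pass in 1 tissue after adjustment, both in HAB: 0.32 ± 0.06 (adjusted p = 0.0167) and 0.32 ± 0.06 (adjusted p = 0.0139). Hif3a and P2ry13 were weakest in PFC (0.096 and 0.075) and Nudt6 was strongest in STR (0.23) and PFC (0.19). The test of a difference between tissues gave an adjusted p of 1.00 for each of the 17 genes; with 12 arrays a tissue, a difference of the size seen here could be missed.

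**Figure D3:**
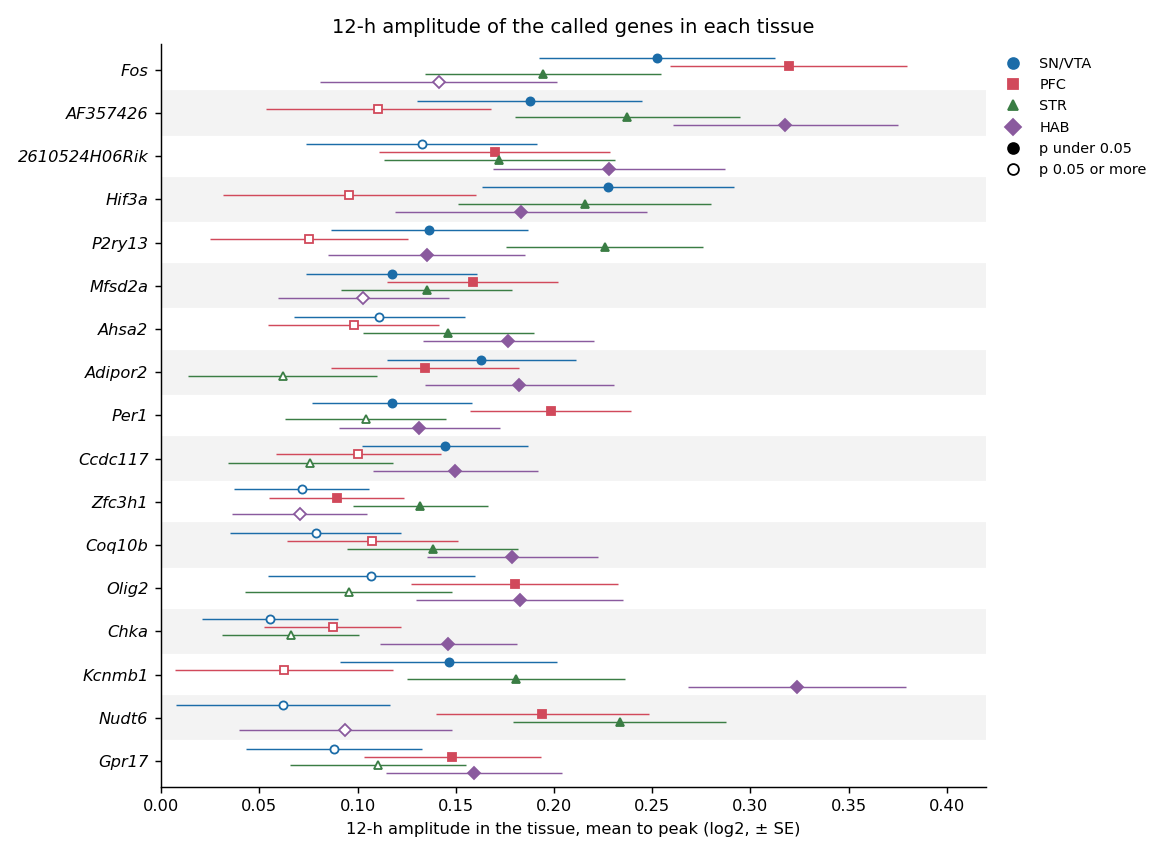
Amplitude of the 12-h term in each tissue (log2, mean to peak, with its SE) for the 17 genes in order of p; filled symbols have an unadjusted p under 0.05 in that tissue. Fos reaches 0.32 in PFC and 0.14 in HAB, and the amplitudes of AF357426 and Kcnmb1 in HAB are both 0.32.

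The 2 collection cycles allow genes found in one to be looked up in the other. In the first cycle alone, 24-h and 12-h terms on its arrays gave 0 genes past the threshold in limma (1021 with an unadjusted p under 0.05, 5.91%), and in the second 1, Hspa1a (998, 5.78%). All 17 genes had an unadjusted p under 0.05 in each cycle, with peaks at most 1.7 h apart, but both cycles had chosen them. Since almost no gene passed in single cycles, the 20 genes of lowest p in one cycle were looked up in the other, a step chosen after this was known. Of the 20 from the first cycle, 4 had an unadjusted p under 0.05 in the second (beside 5.78% of all genes): Hif3a, Adipor2, AF357426 and Fos, all 4 with a peak within 2 h. Of the 20 from the second cycle, 12 had one in the first (beside 5.91%), 11 of the 12 with a peak within 2 h. Whatever their p in the other cycle, 11 of the 20 from the first cycle (55%) and 16 of the 20 from the second (80%) had peaks within 2 h in both, beside 38.1% of all genes. Of the top 100 of the first cycle, 14 had such a p in the second, 9 of them with a peak within 2 h, and 44% of the 100 had peaks within 2 h. For the top 100 of the second cycle these values were 20, 16 and 49%. Hspa1a, the heat-inducible HSP70, showed how far the cycles could part: its amplitude was 0.46 in the second cycle and 0.096 in the first (unadjusted p = 0.336).

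Lists of pathway genes were looked up for smaller 12-h terms. Several of them were also rich in 24-h rhythms, whose shape cannot be told apart from a 12-h rhythm. The 24-h test was passed by 9 of 25 immediate early genes and 13 of 19 glucocorticoid-responsive genes, beside 5.89% of all genes. Of 25 immediate early genes tested, 2 passed (Fos and Per1) and 8 had an unadjusted p under 0.05 (32.0%, beside 6.92% of all genes tested), and all 8 peaked between ZT10 and ZT2. Of all genes tested, 2.41% had both such a p and a peak in that range. The median amplitude of the list was 0.067, beside 0.034 for all genes. Arc, the synaptic activity-regulated protein, had 0.20 (peak ZT11.5, limma, adjusted p = 0.360), Npas4 0.15, Nr4a1 0.14 and Egr1 0.12. Of 19 glucocorticoid-responsive genes, Per1 passed and 8 were under 0.05 (42.1%), all with peaks between ZT10 and ZT2 and a list median of 0.064. Zbtb16, a zinc finger repressor, had 0.22 (peak ZT10.3, adjusted p = 0.15 in limma), Plin4 of lipid droplets 0.14, and Tsc22d3, the glucocorticoid-induced leucine zipper, 0.13. The 24-h amplitudes of Zbtb16, Plin4 and Tsc22d3 were larger, at 0.30, 0.28 and 0.23. Those of Nr4a1 and Egr1 were larger too (0.19 and 0.21), and those of Arc and Npas4 smaller (0.18 and 0.095). Lists share members: Per1 is in both, and Fkbp5 is in the glucocorticoid and the heat shock list. None of these values passed for the genes other than Fos and Per1.

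Core clock genes mostly had a large 24-h and a small 12-h term. Of 21 tested, 15 passed the 24-h test and 1 (Per1) the 12-h test. An unadjusted p under 0.05 for the 12-h pair was reached by 8 (38.1%, beside 6.92% of all genes). The fitted sum of both terms had 2 maxima for 5 of these 8, and 1 for Ciart, Arntl and Per3. Ciart, a repressor of CLOCK and BMAL1, had amplitudes of 0.13 and 0.64 (12 h and 24 h), Bhlhe41 0.11 and 0.24, Cry1 0.085 and 0.18, Nfil3 0.071 and 0.13, and Arntl, which encodes BMAL1, 0.079 and 0.35. Dbp and Nr1d1, the members of this list with the next largest 24-h amplitudes (0.50 and 0.45), had 12-h amplitudes of 0.072 and 0.030 with unadjusted p of 0.0738 and 0.646 in limma. The 12-h terms of clock genes were not tested against each other. Clock had 0.027 and 0.058, Npas2 0.058 and 0.065, Per3 0.061 and 0.29, Cry2 0.023 and 0.12, Nr1d2 0.015 and 0.28, and Tef 0.035 and 0.17. Rora had 0.070 and 0.083, Rorb 0.081 and 0.12, Hlf 0.055 and 0.10, Bhlhe40 0.051 and 0.17, Csnk1e 0.053 and 0.026, Fbxl21 0.049 and 0.061, and Usp2 0.024 and 0.20. Of these, Per3 and Csnk1e had an unadjusted p under 0.05.

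**Figure D4:**
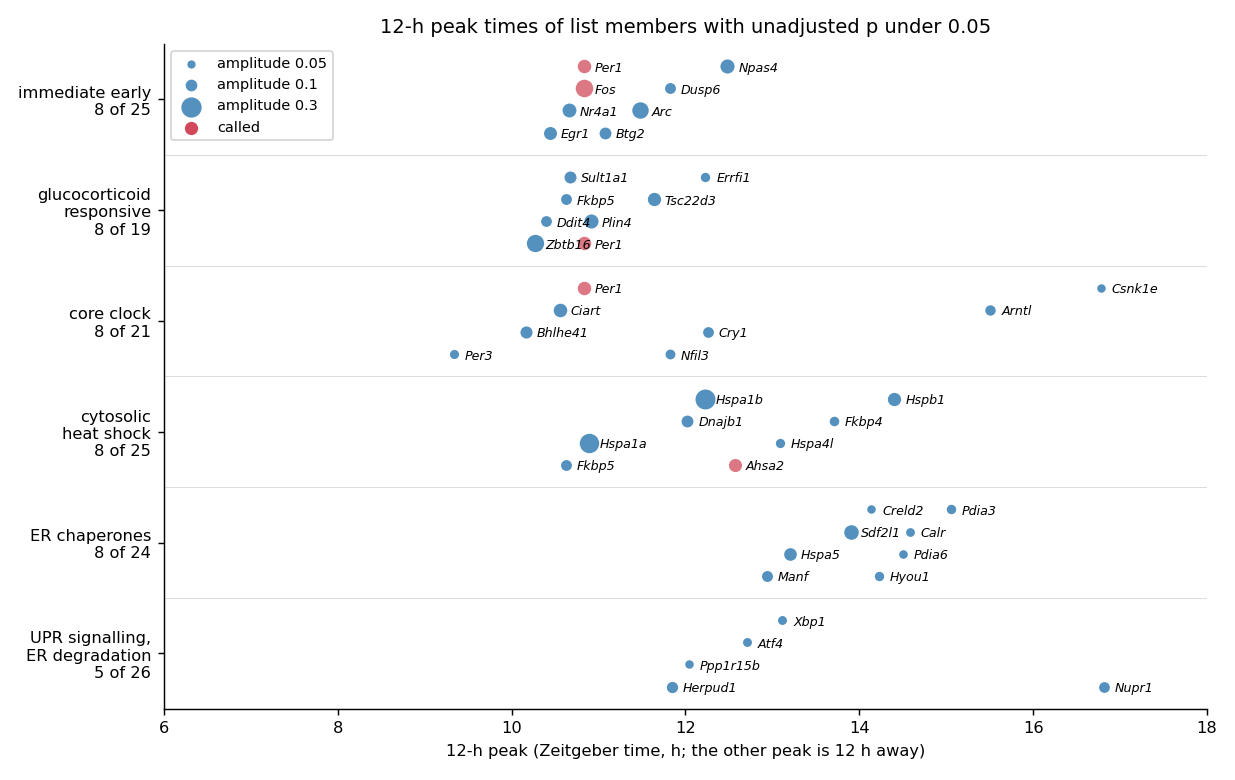
Time of the 12-h peak (shown once; the other is 12 h away) of the members of 6 gene lists that had an unadjusted p under 0.05, with the number of members tested; the area of a point is its 12-h amplitude and red points passed the shared test. Members of the immediate early and glucocorticoid lists lie between ZT10.3 and ZT12.5, and ER chaperones between ZT12.9 and ZT15.1. The time is that of the 12-h term, and not every member had more than 1 fitted maximum in 24 h.

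Of 24 ER chaperones and folding enzymes, 0 passed in limma and 8 had an unadjusted p under 0.05 (33.3%, beside 6.92% of all genes). The list median was 0.052, and 13 of the 24 passed the 24-h test. The 12-h peaks of these 8 lay within a narrow range, from ZT0.9 for Manf to ZT3.1 for Pdia3. The fitted sum of both terms had 2 maxima for 6 of the 8, beside 77.6% of all genes tested. It had 1 for Pdia6 and Creld2. Hspa5 (BiP), the main HSP70 of the ER, was nearest to passing, with 0.12 ± 0.02 (peaks ZT1.2 and ZT13.2, adjusted p = 0.0925 in limma) beside a 24-h amplitude of 0.25 that peaked at ZT18.8. Its 8 arrays of ZT7 ran from -0.56 to -0.26 and did not overlap those of any other time, while ZT15 ran from 0.067 to 0.45 and ZT23 from -0.058 to 0.35. The 12-h term of Hspa5 thus went with a deep trough at ZT7 in a curve that was high through the night. Sdf2l1, a component of an ER chaperone complex, had 0.16 beside a 24-h amplitude of 0.33. By tissue, Hspa5 had 0.17 in STR and in HAB, 0.077 in PFC and 0.065 in SN/VTA.

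The heat shock list of the cytosol had 1 of 25 genes past the threshold (Ahsa2). It had 8 with an unadjusted p under 0.05 (32.0%, beside 6.92% of all genes). The peak lay between ZT10 and ZT2 for 7 of the 8, and 2.41% of all genes had both. The 24-h test was passed by 15 of the 25. Hspa1a had 0.28 ± 0.06 (peak ZT10.9, limma, adjusted p = 0.110), Hspa1b 0.29 beside a 24-h amplitude of 0.49, and Dnajb1, the co-chaperone of the HSP40 family, 0.10. Signalling and degradation genes of the unfolded protein response had 5 of 26 under 0.05 (19.2%, list median 0.032), among them Herpud1 (0.093, peak ZT11.8), Atf4 and Xbp1 (0.058 and 0.059). The 24-h amplitudes were 0.22 for Hspa1a, 0.17 for Dnajb1, 0.13 for Herpud1, 0.044 for Atf4 and 0.16 for Xbp1. Xbp1 had only 1 fitted maximum in 24 h. Splicing factors had 6 of 34 under 0.05 (17.6%) and coat proteins of COPI and COPII vesicles 5 of 35 (14.3%). The 24-h test was passed by 6 of the unfolded protein response genes, 12 splicing factors and 1 coat protein.

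Among lists of other pathways, shares were below the background of 6.92% for respiratory chain subunits with 3 of 69 (4.35%), cytosolic ribosomal proteins with 3 of 58 (5.17%), cholesterol and fatty acid synthesis with 1 of 23 (4.35%) and the proteasome with 0 of 33. In these lists the 24-h test was passed by 1, 1, 3 and 1 genes in the same order. None of 20 markers of dopamine neurons had an unadjusted p under 0.05 in limma and none passed. Of the other neuron lists, markers of striatal medium spiny neurons had 3 of 13 (23.1%), of cortical projection neurons 1 of 11 (9.09%) and of habenula neurons 3 of 16 (18.8%). Among vascular and ventricular cells, endothelial markers had 2 of 8 (25%, Tek and Kdr), ependymal markers 2 of 4 (50%, Tmem212 and Ccdc153) and choroid plexus 1 of 8 (Ttr). Tac1 is counted in both the medium spiny and the habenula list. None of these genes passed.

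Promoters of the ER genes are shown because 4 of them hold the same element. RefSeq promoters (GRCm38.p6), from 250 bases before to 50 after a gene's start, were searched on both strands. The ER stress element, CCAAT and CCACG with 9 bases of any kind between them, which ATF6 binds, occurred in 35 of 27025 promoters (0.13%), in 4 of the 6 ER genes above that have a promoter in the table (66.7%) and in 4 of 15 other tested genes of the list (26.7%). The sites are given on the strand of the gene, with the element in capitals, so that in Calr and Creld2 it reads in reverse. They lie at chr2:34772020-34772048 (+ strand, first base of the element at -65 from the start) for Hspa5, chr8:84847070-84847098 (- strand) for Calr, chr12:17266486-17266514 (+ strand) for Pdia6 and chr15:88819515-88819543 (+ strand) for Creld2.
Hspa5: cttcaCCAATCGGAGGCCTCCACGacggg
Calr: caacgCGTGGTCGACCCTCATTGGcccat
Pdia6: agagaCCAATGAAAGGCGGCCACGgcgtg
Creld2: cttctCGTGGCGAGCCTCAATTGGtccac
The 12-h peaks of the 4 genes were at ZT1.2, ZT2.6, ZT2.5 and ZT2.1 with amplitudes of 0.12, 0.056, 0.054 and 0.053, and their 24-h amplitudes of 0.25, 0.16, 0.22 and 0.19 were larger in each. Pdia6 and Creld2 had only 1 fitted maximum in 24 h. The whole 250 bases before the start of Hspa5 (chr2:34771840-34772089, + strand) hold that element and, further from the start, the core TGACGTG of the unfolded protein response element, found in 1.99% of promoters, both in capitals.
Hspa5: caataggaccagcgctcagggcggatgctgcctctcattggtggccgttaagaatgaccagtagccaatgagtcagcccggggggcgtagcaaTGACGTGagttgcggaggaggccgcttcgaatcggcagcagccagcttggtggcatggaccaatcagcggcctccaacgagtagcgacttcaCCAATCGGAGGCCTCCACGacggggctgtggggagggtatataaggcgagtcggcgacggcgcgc

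Promoters of the 17 genes were searched for the motifs named here, on both strands. Of 14 with a promoter in the table, 2 held the E-box CACGTG, the site of CLOCK and BMAL1 (14.3%, beside 7.24% of all promoters): Per1 at chr11:69098778-69098793, in the first of its 2 listed promoters, and Coq10b at chr1:55052687-55052702, both on the + strand.
Per1: aagtcCACGTGcaggg
Coq10b: ctggaCACGTGcgtca
Another 2, Adipor2 and Zfc3h1, held the ETS core CCGGAAG (14.3%, beside 9.12%). The ER stress element and the core of the unfolded protein response element given above, the cAMP response element TGACGTCA, 1 form of the serum response element, the glucocorticoid response element (GAACA and TGTTC with 3 bases between them) and the heat shock element (GAA, TTC and GAA, or TTC, GAA and TTC, which is the same element read on the other strand, with 2 bases between neighbours) were in none of the 14. These are rare in all promoters, at 0.13%, 1.99%, 1.88%, 0.0777%, 0.0481% and 0.529% in the same order, so that 0 of 14 is no result about these genes. A heat shock element was in none of the 8 heat shock genes with an unadjusted p under 0.05 and in 4 of 15 others of that list (26.7%, beside 0.529% of all promoters, 143 of 27025), Hsph1, Hspe1, Dnajb6 and Chordc1. A match in letters is a description and does not show that a factor binds.

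In single tissues, the 12-h pair passed for 27 genes in HAB (0.156%), 1 in STR (0.00579%) and 0 in SN/VTA and PFC, where 239 and 956 genes had an unadjusted p under 0.05 in limma. The spread was pooled over the tissues here too, so these counts do not rank them. In HAB, genes of contractile smooth muscle led. Acta2, smooth muscle actin, read 9.02 and 9.34 (log2 levels of replicates 1 and 2) at ZT3, 10.54 and 10.76 at ZT7, 8.84 and 8.91 at ZT11, 8.80 and 9.03 at ZT15, 9.63 and 9.49 at ZT19, and 8.89 and 8.80 at ZT23. Both arrays of ZT7 and both of ZT19 were above all 8 others, with ZT7 far higher. The 12-h amplitude was 0.77 ± 0.08 with peaks at ZT6.7 and ZT18.7 (limma, adjusted p = 1.02e-05; 24-h amplitude 0.42). In PFC it was 0.25 (peak ZT6.5, unadjusted p = 0.0158), in SN/VTA 0.11 and in STR 0.051, and Acta2 was the 1 gene whose 12-h rhythm differed between tissues after adjustment (limma, adjusted p = 0.0254; 0.00579% of genes tested, with 4.9% at an unadjusted p under 0.05). Tagln (0.51), Myl9 (0.41), Myh11 (0.47) and Flna (0.30), which encode proteins that bind actin or form the smooth muscle myosin, followed with peaks from ZT6.4 to ZT7.2. Of the 27 genes 21 peaked between ZT6 and ZT8.

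Markers of several cell types and neighbouring regions were looked up in HAB, where 8.23% of all genes had an unadjusted p under 0.05. Of 17 genes of smooth muscle and pericytes, a list chosen after the HAB genes were seen, 8 passed in HAB and 12 were under 0.05, but not Des, Tpm1, Notch3, Lmod1 or the pericyte marker Rgs5 (0.041). The 16 genes other than Acta2 include the rest of the 8 that passed. Their mean log2 level was 7.51 and 7.64 on the 2 HAB arrays of ZT7 and 7.08 and 7.13 on those of ZT19. On the 8 other arrays it ran from 6.88 to 6.98. Of 8 endothelial markers 2 were under 0.05 and 1, Vwf, passed (0.33, peak ZT7.0, adjusted p = 0.0165 in limma). Of 16 habenula markers 5 were under 0.05 and 1 passed, the nicotinic receptor subunit Chrnb4 (0.31, peak ZT7.9, adjusted p = 0.0158), with 9.89 and 9.77 at ZT7, 9.84 and 9.75 at ZT19 and 9.01 and 9.45 at ZT15. Of 9 thalamus markers 7 were under 0.05 and none passed, with peaks from ZT0.8 to ZT1.5 and a median amplitude of 0.38, beside 0.067 for all genes in HAB. Calb2, with its peak at ZT0.8, is counted in both the habenula and the thalamus list. The other habenula markers under 0.05 peaked from ZT6.5 to ZT7.9. Acta2 peaked at ZT6.7. Of 8 hippocampus markers 3 were under 0.05 and none passed: Wfs1 (0.47, peak ZT6.8, adjusted p = 0.0595 in limma), Fibcd1 (0.34, peak ZT7.4) and Calb1 (0.21, peak ZT2.1). The mean log2 level of the hippocampus list over 4 arrays was 8.99 ± 0.21 (SD) at ZT7 and ZT19, 8.75 ± 0.22 at ZT11 and ZT23 and 8.76 ± 0.29 at ZT3 and ZT15. That of 4 ependymal markers, of which 1 was under 0.05, was 7.70 ± 0.14, 7.43 ± 0.12 and 7.47 ± 0.18 at the same pairs of times. The thalamus list level ran from 8.47 to 9.54 at ZT7 and ZT19 and from 9.06 to 10.19 at ZT11 and ZT23. Necab1, a calcium-binding protein of neurons, peaked with the thalamus markers (0.56, peak ZT1.2, adjusted p = 0.0115). The part of these cell types in the HAB result was not tested.

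The HAB count rested on the spread pooled over the 4 tissues and on single arrays. Fitted on its 12 arrays alone, HAB had 0 genes past the threshold and Acta2 an adjusted p of 0.0709 in limma. Without the HAB array of ZT19 replicate 2 the count was 9, and without ZT11 replicate 1, ZT7 replicate 2 or ZT3 replicate 2 it was 45, 66 and 98. Acta2 passed in HAB in each of the 12 fits that left out 1 HAB array, with amplitudes from 0.71 to 0.83. The difference between tissues was less firm: 0 genes passed without any 1 of 9 arrays, the SN/VTA arrays of ZT19 replicate 1, ZT19 replicate 2 and ZT7 replicate 2, the STR array of ZT7 replicate 1, or the HAB arrays of ZT7, ZT11, ZT15 and ZT19 replicate 1 and of ZT11 replicate 2.

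**Figure D5:**
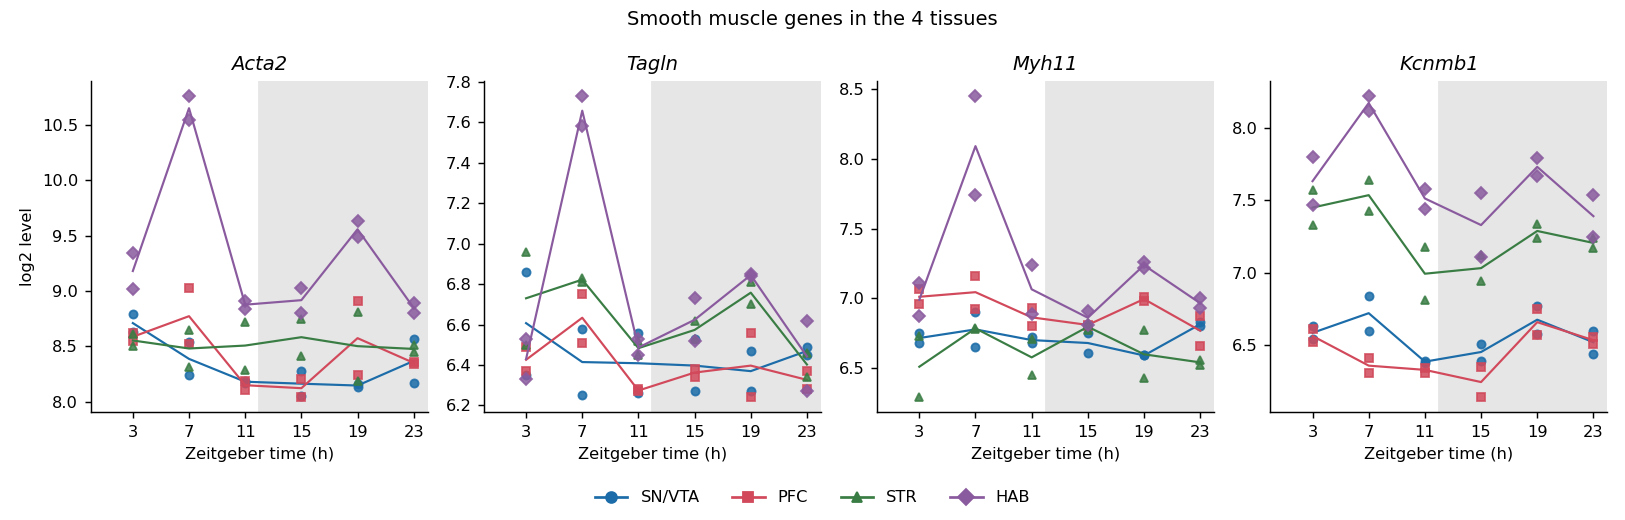
Log2 level of 4 smooth muscle genes on each array against Zeitgeber time, with lines through the mean of the 2 arrays of a tissue and time; the grey area is darkness. In HAB the arrays of ZT7 are the highest for each gene, at 10.54 and 10.76 for Acta2, with a smaller rise at ZT19.

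In STR the 1 gene was Oxt, the precursor of oxytocin, which is made in the hypothalamus. Its arrays read 7.20 and 7.16 at ZT3, 7.32 and 7.07 at ZT7, 7.21 and 7.48 at ZT11, 6.43 and 6.68 at ZT15, 6.74 and 6.62 at ZT19, and 7.78 and 8.06 at ZT23 (log2 levels of replicates 1 and 2). The arrays of ZT23 were above all others and those of ZT11 overlapped ZT7. The 12-h amplitude was 0.49 ± 0.07 with peaks at ZT10.8 and ZT22.8 (limma, adjusted p = 0.00372; 24-h amplitude 0.39), and in the other tissues it was at most 0.095. Avp, the precursor of vasopressin, had 0.18 in STR with the same peak (unadjusted p = 0.0260, limma). The mean log2 level of 4 other hypothalamic peptide genes, Avp among them and chosen after Oxt was seen, ran in STR from 6.42 to 6.58 at ZT11 and ZT23 and from 6.20 to 6.4 at the other times, and its part in the Oxt value was not tested. Oxt did not pass without the STR array of ZT23 replicate 2 (0.43, adjusted p = 0.0677), without that of ZT11 replicate 2 (0.47, adjusted p = 0.0791) or on the STR arrays alone (adjusted p = 0.348).

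The 17 genes were sensitive to single pools in the shared fit. Without the STR array of ZT23 replicate 2, 10 genes passed. Without all 4 arrays of ZT23 replicate 2, ZT19 replicate 2, ZT11 replicate 2 or ZT7 replicate 1 it was 3, 4, 5 and 11. Without HAB 4 genes passed, without STR 3, without PFC 7 and without SN/VTA 1. In each of the 48 fits that left out 1 array, 10 of the 17 genes passed, and in each of the 12 that left out a time and cycle 2 did, Fos among them with an adjusted p of at most 0.0270.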

How the data were processed

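Affymetrix Mouse Gene 2.0 ST arrays were hybridised, per the labels, with amplified RNA of 48 pools of 3 mice. The deposited values were read as log2 expression, with a lowest of 1.09 and a highest of 13.65 and medians of 5.84 to 6.07 per array. For the normalization and summarisation done by the authors, a description is not given in the sources used here, and no detection calls were used. The number of arrays limits the precision.

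Of 41345 rows, 23521 had 1 gene symbol in the platform annotation, 1814 had several and 16010 were unnamed and not used. Of several rows of a gene the one with the highest mean was kept, and genes with a mean under 5.05, the 30th percentile of all rows, were left out, which left 17274 of 22180. limma 3.58.1 (R 4.3.3) fitted tissue, a 24-h and a 12-h cosine and sine to 48 arrays, with an F test of the 12-h pair and Benjamini-Hochberg adjustment; a second model gave each tissue its own terms, and SE are of amplitudes. The script was tested on simulated data. Figures and promoter searches used Python 3.11.15 and matplotlib 3.10.9.

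Same-numbered arrays of a tissue (mean r of 0.0357 over 60 pairs, lowest -0.16) and arrays of the same time and cycle in 2 tissues (mean r of 0.0357 over 36 pairs, lowest -0.121) were not treated as paired. Named genes were those past the threshold with the largest amplitudes (20) or smallest p (10), up to 4 of each list, all measured core clock genes, the 5 smallest p of each tissue or of the difference between tissues that passed, and the 3 nearest outside. Small RNAs and predicted genes were passed over. The members and lists were chosen with earlier results of these data known, and genes named beyond the rule were chosen after their values were seen.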

Additional observations from a re-analysis of the deposited data

Results flagged for a closer look

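The 12-h rhythm of Acta2 differed between the 4 tissues in the test of the difference itself (limma, adjusted p = 0.0254). The amplitude was 0.77 in HAB, with both arrays of ZT7 and both of ZT19 above the 8 others, 0.25 in PFC, 0.11 in SN/VTA and 0.051 in STR. A list of 17 genes of smooth muscle and pericytes was chosen after the HAB genes were seen, and 8 of them, Acta2 included, passed in HAB. Its level therefore adds no support. The mean log2 level of the 16 genes other than Acta2 was 7.51 and 7.64 on the HAB arrays of ZT7 and 7.08 and 7.13 on those of ZT19. On the 8 others it was 6.88 to 6.98, and its part in the difference was not tested.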

How the results depend on the processing

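The 17 genes became 0 with 12 means over the tissues and 2 at a threshold of 0.01; the other 11 settings gave 14 to 25. The 24-h count of 1018 became 159 with 12 means, 444 at 0.01 and 1541 at 0.10. With 1 cycle, tissue, time or array left out, the 12-h count ran from 0 to 23 and the 24-h count from 97 to 1034: without replicate 1 they were 1 and 97, without replicate 2 0 and 200, without SN/VTA 1 and 419, without PFC 7 and 482, without STR 3 and 553, and without HAB the 12-h count was 4. Without all arrays of ZT7 replicate 1, ZT11 replicate 2, ZT19 replicate 2 or ZT23 replicate 2 it was 11, 5, 4 and 3. On the arrays of a tissue alone STR and HAB had 0 genes; with 1 array left out, the counts ran from 0 to 4 in PFC, from 0 to 6 in STR, from 9 to 98 in HAB and from 0 to 4 for the difference between tissues. Quantile normalization gave 2 genes in the second cycle alone. The cause of these changes was not tested, beyond the smaller number of arrays. The replicate number as a block gave 19 genes, the 17 among them, and 31 in HAB; the numbers mark collection cycles and do not pair the samples. No amplitude of the 17 reversed. The smallest amplitude called with 48 arrays was 0.088, that of Chka.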
